A study of Homo sapiens with 17 samples.

Results

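Of the 2001 lamina-associated domains (LADs) on chromosomes 1 to 22 of proliferating IMR90 cells, 221 (11%) shared no base pair with any stretch that the deposited lists call as changed in senescence. The 221 LADs are described here as LADs without a called change. They were chosen by overlap with 4 lists of changed regions, so their number, their lengths and their distances to those regions follow from the choice and are given as descriptions, with no test. The whole LAD list holds 2054 regions, and 226 meet the same rule when chromosomes X and Y are counted, with 1 of 47 on X and 4 of 5 on Y. Whether the reads behind the calls on Y come from a Y chromosome was not tested. Those 4 are therefore not read as LADs that stayed unchanged.

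IMR90 is a line of human lung fibroblasts with a limited lifespan. All 17 libraries were made from it by chromatin immunoprecipitation and sequencing (ChIP-seq), with antibodies against lamin B1 (1 library), histone H3 (6), H3K4me3 (4) and H3K27me3 (6). LADs were mapped in proliferating cells at population doubling 24. The replicative lists compare these cells with senescent cells at doubling 87 that were kept for 2 weeks after they stopped growing, and the Ras-induced list compares control cells at doubling 15 with cells at doubling 15 that carry the retroviral construct pLNC-ER:Ras, in which 100 nM of 4-hydroxytamoxifen switches Ras on. Lamin B1 was mapped in 1 library of proliferating cells and not in the cells used for the Ras experiment. The Ras carriers came from retroviral infection, and the labels do not say whether the controls carried the construct or an empty vector.

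Lamin B1 is a filament protein of the nuclear lamina, the meshwork that lines the inside of the nuclear envelope. LADs are long, mostly gene-poor and transcriptionally quiet stretches of chromatin that touch it, and loss of lamin B1 itself is a known feature of senescent fibroblasts. H3K4me3, trimethylation of lysine 4 of histone H3, marks active promoters. H3K27me3, trimethylation of lysine 27, is laid down by the Polycomb complex PRC2 and marks repressed chromatin. The study calls a region a mesa where senescent cells have more of a mark, and a canyon where they have less of it. The file headers state a direction for the replicative H3K4me3 list alone, so gain or loss is taken from the names of the other 3 lists. A LAD without a called change is therefore one that met no listed gain of H3K4me3 or H3K27me3 and no listed loss of H3K27me3. None of the lists used gives loss of H3K4me3, and H3K27me3 was not mapped in the Ras experiment. The lists hold coordinates only, and the depth of the libraries is unknown here. A region without a change cannot be told apart from one whose change fell below the authors' thresholds, or from one with too few mapped reads for a call.

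Counted by at least 1 shared base pair, loss of H3K27me3 was the change that most autosomal LADs met. Canyons touched 1307 of 2001 LADs (65.3%), Ras-induced H3K4me3 mesas 727 (36.3%), H3K27me3 mesas 713 (35.6%) and replicative H3K4me3 mesas 540 (27%). Canyons were also the largest list, with 994 Mb on the autosomes against 452 to 674 Mb for each other list. By base pairs of LAD sequence, canyons had the highest cover of the 4 lists only on chromosomes 2, 4, 5 and 13. On chromosome 20 they covered 9.85%, against 55.1% for Ras-induced mesas. They covered 22.5% of LAD sequence on chromosome 1, where Ras-induced mesas covered 30.7%, and 52.9% on chromosome 13, where Ras-induced mesas covered 20.9%. Canyons alone touched 681 LADs, H3K27me3 mesas alone 124, Ras-induced mesas alone 43 and replicative mesas alone 28. The number of LADs without a call therefore turned mainly on canyons. Without the canyon list 902 LADs would have met the rule. Among the 1780 other LADs the median cover by the 4 lists together was 99.6%, and 848 (47.6%) were covered wholly.

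LADs without a called change made up a smaller part of the lamina-associated genome than their number implies. They held 89.7 Mb, which is 5.25% of the 1708 Mb of autosomal LADs. In all, 578 Mb of autosomal LAD sequence lay under none of the 4 lists. Of this, 15.5% was in the 221 LADs and the other 488 Mb was in LADs that were touched elsewhere along their length.

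The 221 LADs were mostly short. Their lengths ran from 100 kb through a median of 210 kb to 5860 kb, against a median of 480 kb for the other autosomal LADs. Of the 221, 106 (48.0%) were at most 200 kb long and 24 were exactly 100 kb, whereas 23.8% of the other LADs were at most 200 kb. The share without a called change was lower in each longer length class. It was 26.7% (24 of 90) up to 100 kb, 18.6% (82 of 440) from there to 200 kb, 14.3% (35 of 244) to 300 kb, 12.3% (38 of 310) to 500 kb and 4.58% (42 of 917) above. A longer LAD has more base pairs that can meet a region, so this order is built into the rule. The 42 LADs over 500 kb nevertheless carried 58.3% of the base pairs, and 16 of them exceeded 1 Mb, beside 507 of the other LADs.

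**Figure D1:**
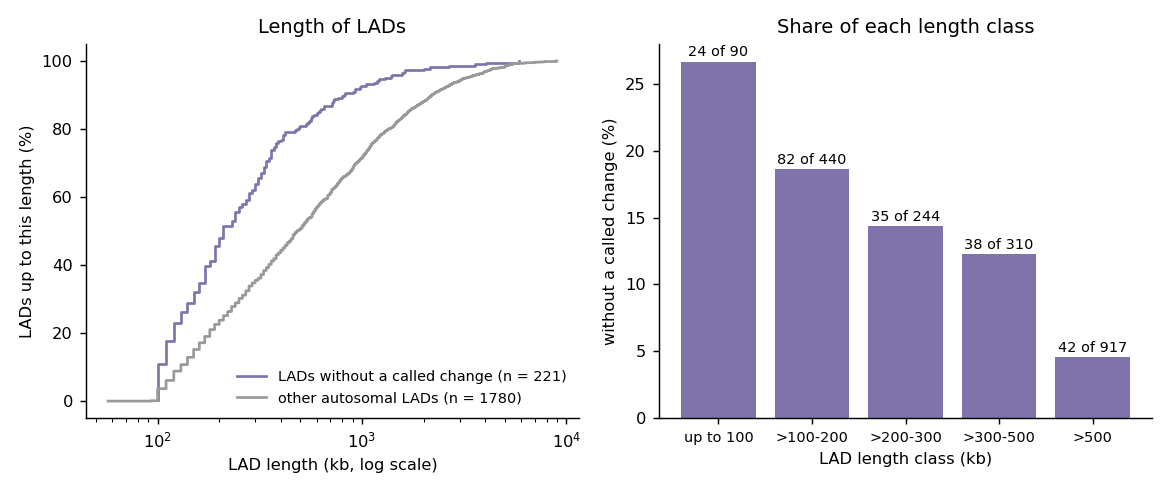
Left, cumulative share of LADs (%) by length (kb, log scale) for the 221 LADs without a called change and the 1780 other autosomal LADs. Right, bars give the share (%) of each length class without a called change, with the counts above; it falls from 26.7% up to 100 kb to 4.58% above 500 kb.

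The longest of the 221 lay on chromosomes 4, 21, 2 and 3 (build hg18 throughout, positions counted from 1). The first, on chromosome 4 at 62190001 to 68050000, spanned 5.86 Mb. Its nearest changed region was an H3K27me3 mesa 592 kb to the right, and on the left a replicative H3K4me3 mesa lay 3975 kb away. The second, on chromosome 21 at 21550001 to 25610000, spanned 4.06 Mb, with a Ras-induced mesa 2022 kb to the left and a canyon 1409 kb to the right. Both were thus far from any call on at least one side. The third, on chromosome 2 at 153310001 to 156900000 (3.59 Mb), differed in that it sat between canyons on both sides, 635 kb and 85.8 kb away. Next came chromosome 4 at 96650001 to 99320000 (2.67 Mb) and chromosome 3 at 79510001 to 81660000 (2.15 Mb). The latter was 3103 kb from its nearest call and, of all 221, only a LAD of 110 kb on chromosome 1 at 72040001 to 72150000 was farther, at 3879 kb.

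The threshold of the rule is 1 shared base pair, and LADs lay close to it on both sides. Just inside, a LAD of 190 kb on chromosome 1 at 64920001 to 65110000 was 1.10 kb from an H3K27me3 mesa. LADs on chromosome 12 at 94780001 to 95100000 and on chromosome 5 at 74370001 to 74700000 were 5.6 kb and 7.30 kb from a canyon. Just outside, the LAD on chromosome 16 at 110001 to 530000 shared 900 bp (0.214% of its length) with an H3K27me3 mesa. The LADs on chromosome 17 at 32030001 to 32360000 and chromosome 6 at 108120001 to 108540000 shared 2400 bp and 3200 bp with canyons. In all, 118 other LADs were covered to at most 10%. Most of the 221 were well clear of the threshold, with 216 more than 10 kb, 163 more than 100 kb and 52 more than 500 kb from any region.

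Chromosomes differed in how many such LADs they held. The share over 22 autosomes was 11.4 ± 4.18% (SD), with a median of 11.9%. Chromosome 13 held none among 69 LADs, and chromosome 21 had the highest share, 4 of 20 (20%). If every LAD counted at the share of its length class over all autosomes, chromosome 13 would hold 8.01 and chromosome 21 would hold 2.01. By the same measure chromosome 4 held 21 against 15.6, chromosome 1 held 27 against 22.5, and chromosome 10 held 6 against 10.0. These counts are small, and the cover of LADs by the lists, which the rule used, does not order all of them. Canyons covered 52.9% of LAD base pairs on chromosome 13, the most of any autosome. All 4 lists together covered 38.0% on chromosome 21 and 45.3% on chromosome 4, the lowest values of the 22 autosomes. Chromosomes 19 and 20, with the highest such cover (82.1% and 80.8%), nevertheless held 8 against 6.13 and 7 against 5.97, and chromosome 6, with 54.0%, held 11 against 12.6. By base pairs, the LADs without a called change made up 27.9% of LAD sequence on chromosome 21 and 12.5% on chromosome 4, where H3K27me3 mesas covered 3.77% of LAD base pairs. On chromosome 21, 5690 kb of the 6.0 Mb came from 2 LADs, the one named above and one at 16140001 to 17770000.

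**Figure D2:**
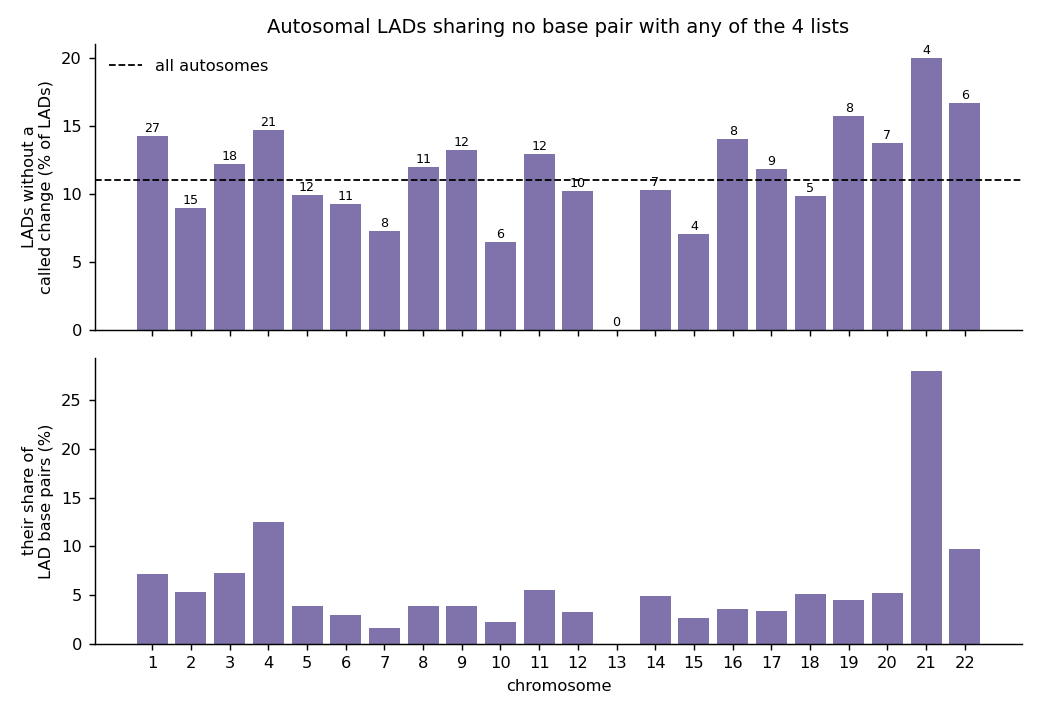
Top, share of each autosome's LADs (%) that share no base pair with any of the 4 lists, with the number of such LADs above each bar and the share over all autosomes as a dashed line. Bottom, their share of the autosome's LAD base pairs (%). Chromosome 13 holds none, and chromosome 21 reaches 20% of LADs and 27.9% of LAD base pairs.

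Distances to the nearest region differed by list. The median distance was 435 kb to a canyon (range 5.6 to 11452 kb), 622 kb to an H3K27me3 mesa (1.10 to 7334 kb), 1184 kb to a Ras-induced H3K4me3 mesa (22 to 14137 kb) and 1233 kb to a replicative H3K4me3 mesa (10.0 to 14116 kb). A canyon was the nearest region for 93 LADs, an H3K27me3 mesa for 60, a Ras-induced mesa for 39 and a replicative mesa for 30, with 1 tie between the H3K4me3 lists. Other autosomal LADs were weighted so that 5 length classes (the ones given above) counted as often as among the 221, and are called LADs of similar length. Those that did not touch a list lay at a median of 487 kb from a canyon, 1103 kb from an H3K27me3 mesa, 1176 kb from a Ras-induced mesa and 1552 kb from a replicative mesa. The medians of the 221 minus these were -481 kb for H3K27me3 mesas, -319 kb for replicative mesas, -52.1 kb for canyons and 8.0 kb for Ras-induced mesas. The other LADs in each of these medians touch at least 1 of the remaining lists, so the comparison is between different kinds of surroundings and was not tested.

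The stretch free of called changes around each LAD, from the end of the nearest region on the left to the start of the nearest on the right, had a median of 1394 kb and ran from 260 kb to 10427 kb. It exceeded 1 Mb for 145 LADs and 5 Mb for 18. For 5 LADs at the end of a chromosome no region lay on one side, and they have no such value. The longest stretch, on chromosome 4, held a LAD of 710 kb at 61290001 to 62000000 beside the longest LAD of the set. The next, of 9.81 Mb on chromosome 3, held 3 LADs: at 77060001 to 78210000, at 78400001 to 78780000 and the one of 2.15 Mb given above. Both ends of both stretches fell inside other LADs that were touched.

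**Figure D3:**
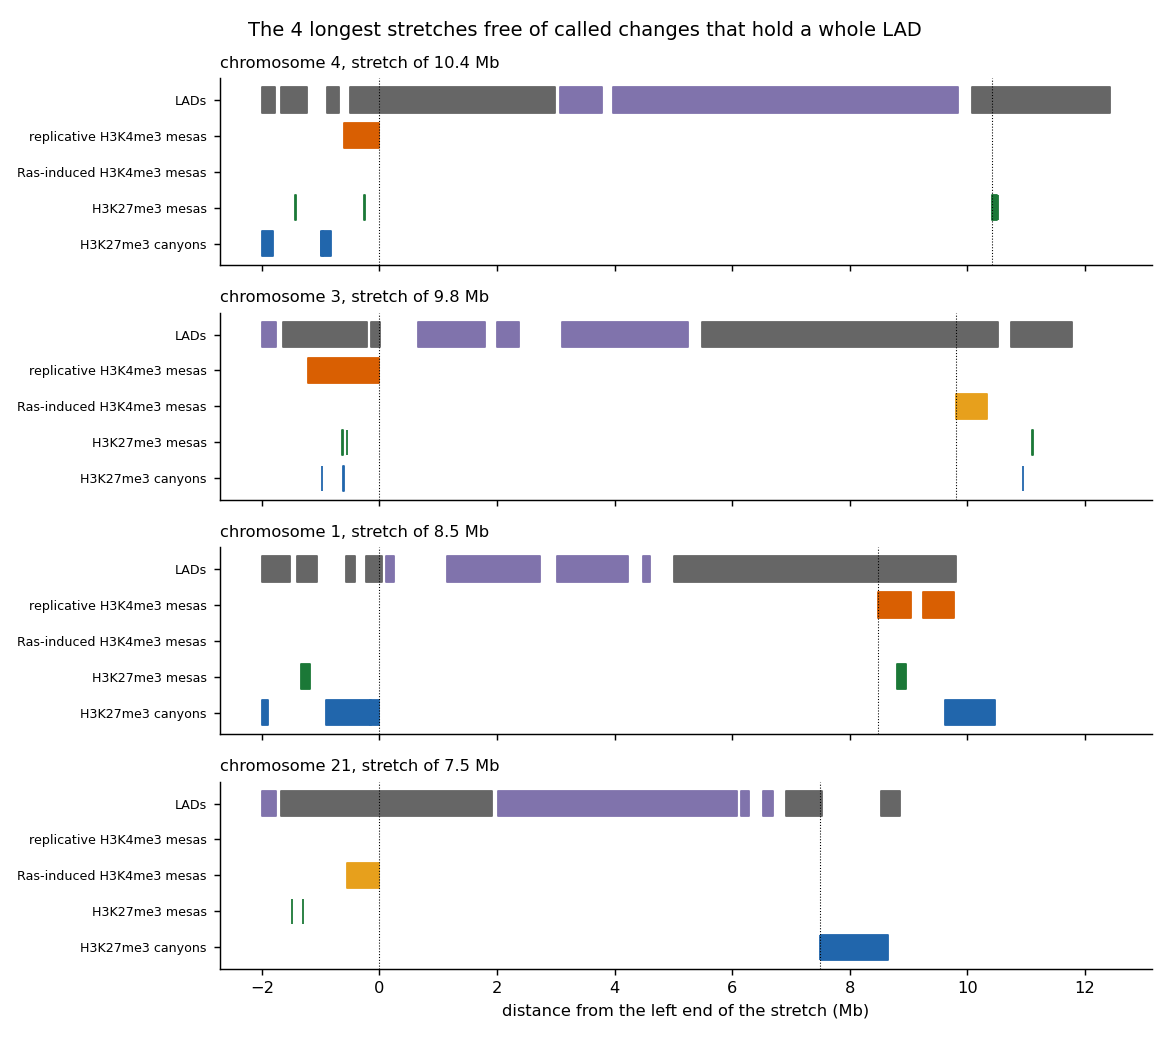
The 4 longest stretches free of called changes that hold a whole LAD, on chromosomes 4, 3, 1 and 21, with distance from the left end of the stretch (Mb) on the horizontal axis and 2 Mb of surroundings on each side. Purple bars are LADs without a called change, grey bars other LADs, and coloured bars the 4 lists of changed regions; dotted lines mark the ends of the stretch. The stretches of 10.4 and 9.81 Mb hold 2 and 3 such LADs.

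Gain and loss of H3K27me3 often faced each other across these LADs. Of 216 LADs with a region on both sides, 78 had a canyon on one side and an H3K27me3 mesa on the other, in 39 cases with the canyon on the left and in 39 on the right. A canyon faced an H3K4me3 mesa of either kind in 54, an H3K27me3 mesa faced an H3K4me3 mesa in 46, and H3K4me3 mesas lay on both sides in 20. Canyons on both sides were found for 10 and H3K27me3 mesas on both sides for 8. The same pairing had a similar share where no such LAD lay. Of 161 stretches with regions at both ends and at least 1 of the 221 LADs inside, 36.6% ran between a canyon and an H3K27me3 mesa. Among the 665 other autosomal stretches of at least 260 kb, 34.9% did, or 34.6% when weighted to the same stretch lengths. LADs filled 58.8% of the stretches that held one of the 221 and 59.6% of the others.

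The nearest region usually lay past the flanking gap, which is the stretch between a LAD and the next one. Over 437 sides with a region, 156 (35.7%) met their nearest region in the flanking gap, 171 (39.1%) in the neighbouring LAD and 110 (25.2%) beyond it. A canyon was nearest on 155 sides, and 65 of these canyons began in the gap. Of the 221 LADs, 97 (43.9%) had both flanking gaps free of all 4 lists, as did 10.2% of all autosomal LADs and 4.56% of the others at similar length.

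Cover of the flanking gaps was compared next. Canyons covered 15.9% of gap base pairs beside the 221 LADs and 68.1% beside LADs of similar length, a difference of -52.2 percentage points, with the 221 lower on 21 of 21 autosomes. Of the 221, 77 (34.8%) had a canyon in a flanking gap, against 71.5% of all autosomal LADs. Ras-induced mesas covered 5.85% of gap base pairs against 15.0% (lower on 18 of 21 autosomes), replicative mesas 2.19% against 4.85% (lower on 16) and H3K27me3 mesas 1.90% against 2.99% (lower on 14). Ras-induced mesas lay in a flanking gap of 37 LADs (16.7%, against 43.6% of all autosomal LADs) and replicative mesas of 26 (11.8%, against 26.7%). For H3K27me3 mesas the count of 61 (27.6%) was close to the 27.3% of all autosomal LADs. It was above the 23.3% of LADs of similar length, so for this list count and base-pair cover differed in direction. A changed region that runs over a gap can run on into the LAD, which removes that LAD from the set, so these differences are partly fixed by the rule. They also depended on the comparison group, in a split made after the data were seen into LADs touched by canyons only (681), by mesas only (473) or by both (626), again weighted to similar length. Beside LADs touched by mesas only, canyons covered 20.3% of gap base pairs, so the canyon difference shrank to -4.31 points and was smaller than those of Ras-induced (-18.6), H3K27me3 (-11.7) and replicative mesas (-10.2). Beside LADs touched by canyons only, Ras-induced mesas covered 6.34%, a difference of -0.49 points. The values for replicative mesas (1.79%) and H3K27me3 mesas (0.68%) there were below those of the 221, which turned the direction.

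Neighbouring LADs were not used directly by the rule, but 28.8% of those next to the 221 met it themselves. Next to LADs of similar length 7.04% did. Such neighbours have no cover by any list, so the differences in this paragraph are partly fixed by the rule. Canyons covered 7.39% of the base pairs of LADs next to the 221 and 31.7% of those next to LADs of similar length, lower on 21 of 21 autosomes. For Ras-induced mesas the values were 24.2% and 31.7% (lower on 13 autosomes), for replicative mesas 19.0% and 25.3% (lower on 15) and for H3K27me3 mesas 19.2% and 24.6% (lower on 12). Counts of LADs with a region in a neighbouring LAD differed by list. For H3K27me3 mesas 63.3% of the 221 had one against 51.5% at similar length, and for replicative mesas 46.2% against 45.2%. The 221 were lower for canyons (64.7% against 88.6%) and Ras-induced mesas (46.2% against 58.1%). Next to LADs touched by mesas only, canyons covered 8.78%, close to the 7.39% of the 221, and next to those touched by canyons only 43.4%. Next to the canyon-only group, H3K27me3 mesas covered 15.2% and Ras-induced mesas 22.9%, both below the values of the 221. Replicative mesas covered 19.5% there, slightly above.

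Farther from the LAD edge cover was higher, and for the 3 mesa lists it came near that around other LADs. In the first 50 kb outside the 221 LADs, canyons covered 1.29%, H3K27me3 mesas 1.10%, Ras-induced mesas 0.229% and replicative mesas 0.183%. The values beside LADs of similar length were 61.9%, 6.01%, 20.0% and 8.79%. At 950 to 1000 kb, replicative mesas covered 18.3% against 16.8%, Ras-induced mesas 22.8% against 24.5%, and H3K27me3 mesas 15.8% against 11.5%. Canyon cover at that distance was 20.1% against 51.8%. Within 5 Mb on each side, the median canyon cover was 19.3% around the 221 LADs and 43.8% around LADs of similar length, lower on 19 of 21 autosomes. These canyon differences are partly fixed by the rule as well. Of the 1780 other LADs, 681 were touched by canyons only and 626 by canyons and mesas. The longest autosomal canyon spanned 18534 kb, so a canyon that touches a LAD can still cover sequence at these distances.

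**Figure D4:**
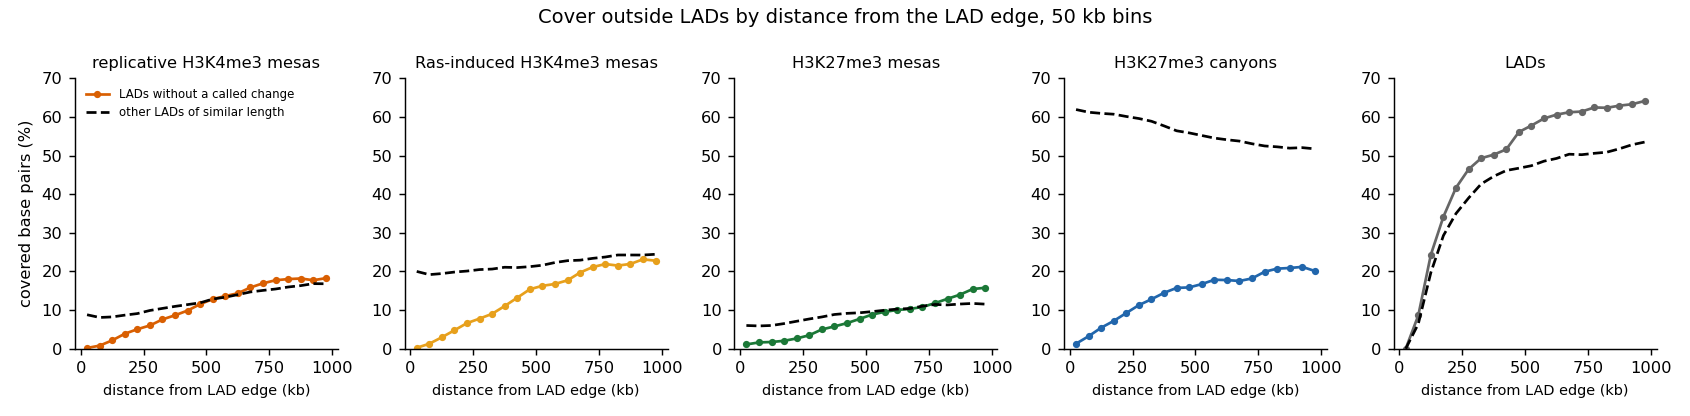
Share of base pairs (%) covered by each of the 4 lists and by LADs, in bins of 50 kb from the LAD edge outward to 1000 kb, both sides pooled. Coloured lines with points are the 221 LADs without a called change and dashed black lines other autosomal LADs weighted to the same length classes. Near the edge the coloured lines of the 4 lists start near 0, which is partly fixed by the rule. LAD cover is 0 in the first bin for both groups. At 950 to 1000 kb canyon cover is 20.1% against 51.8%, which is also partly fixed by the rule, while the mesa lists differ by less.

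The gaps between these LADs and their neighbours were somewhat shorter than those beside LADs of similar length. The mean of the gaps on both sides had a median of 325 kb (range 60 to 2220 kb, quartiles 185 and 580 kb), against 395 kb (quartiles 220 and 735 kb), a difference of -70 kb with the 221 lower on 16 of 21 autosomes. In the class over 500 kb, which holds 58.3% of the base pairs of the 221, the direction turned, with 385 kb against 360 kb. The quartiles overlapped widely, and with 1 lamin B1 library neither this difference nor those below could be tested over samples. The longer of the flanking gaps had a median of 440 kb against 570 kb (lower on 17 autosomes) and the shorter one 150 kb against 180 kb (lower on 13). The LADs with the longest gaps were on chromosome 11 at 100980001 to 101170000, with 4290 kb to the next LAD on the right, and on chromosome 3 at 89390001 to 90680000, with 4210 kb. A LAD of 570 kb on chromosome 7 at 74510001 to 75080000 had the shortest in sum, 60 kb and 70 kb, equal to that of a LAD of 230 kb on chromosome 8. Gaps of 3 Mb or more bordered 4 of the 221 (1.81%) and 35 of the other LADs (1.97%), a similar share.

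The direction of the gap difference also depended on which other LADs were compared. By the split given above, LADs touched by canyons only had gaps with a median of 445 kb at similar length, and LADs touched by both canyons and mesas 440 kb. LADs touched by mesas only had 245 kb, which is 80 kb shorter than the 325 kb of the 221. The mesa-only group held just 4 LADs of up to 100 kb, and among LADs over 100 kb its median was also 245 kb against 325 kb. By gap length the 221 LADs thus lay between LADs touched by mesas only and LADs touched by canyons.

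The wider surroundings held more LAD sequence than those of LADs of similar length. LADs covered a median of 62.2% of the 5 Mb on each side of the 221 (range 12.7 to 95.8%), against 56.6% around LADs of similar length, higher on 17 of 21 autosomes. By the same split, the value was 56.1% around LADs touched by canyons only, 52.4% around those touched by canyons and mesas, and 64.0% around those touched by mesas only. Among LADs over 100 kb it was 62.5% around those without a called change and 62.6% around the mesa-only group. The canyon-only group there had 56.0% and the group touched by both 54.0%. The 221 exceeded the canyon-only group on 16 of 21 autosomes and the mesa-only group on 9. Neighbouring LADs had a median mean length of 710 kb, against 555 kb at similar length (longer on 15 of 21 autosomes), and the mesa-only group had 750 kb. Position was measured as the distance to the end of the span of listed regions, from the first to the last region of the 5 lists on a chromosome. This span can start far from the chromosome's own end. The distance had a median of 31.4 Mb against 30.6 Mb (10 autosomes nearer, 11 farther). By the same split it was 37.4 Mb for LADs touched by canyons only, 24.1 Mb for those touched by both and 20.2 Mb for those touched by mesas only, so the 221 lay between these groups.

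**Figure D5:**
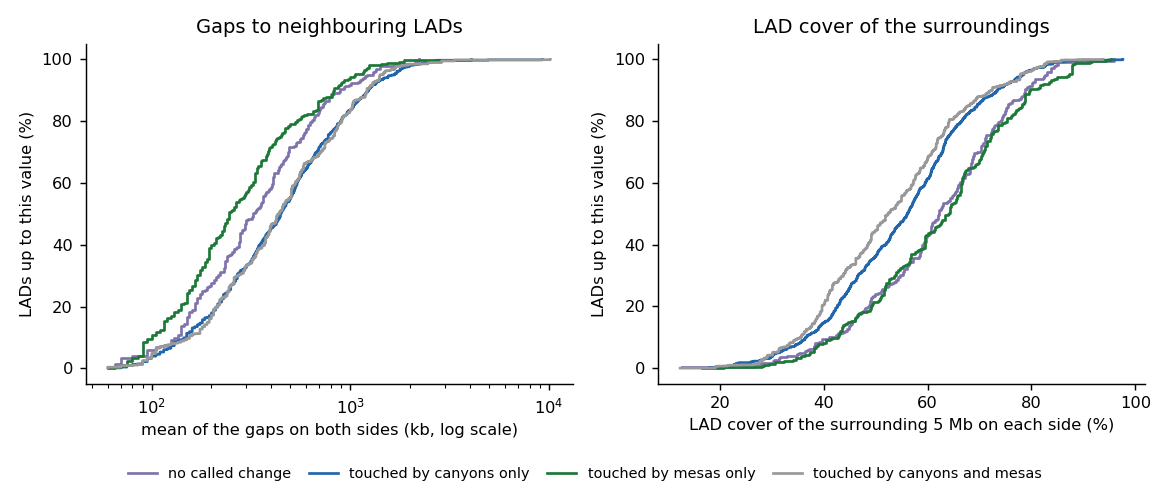
Cumulative share of LADs (%) by the mean of the flanking gaps (kb, log scale, left) and by LAD cover of the surrounding 5 Mb on each side (%, right), for the 221 LADs without a called change and for LADs touched by canyons only, by mesas only or by both, each weighted to the same length classes. The median gap of 325 kb lies between 245 kb for the mesa-only group and 445 kb for the canyon-only group, and the median LAD cover of 62.2% is near the 64.0% of the mesa-only group.

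LADs without a called change often came next to one another. Neighbours were counted per side, so a LAD with one of the 221 on each side counts for both. Of 437 neighbours counted in this way, 126 (28.8%) were also without a called change, against 7.04% of the neighbours of LADs of similar length. Of the 221, 108 had at least 1 such neighbour, and 20.1% of all autosomal LADs did. The 221 fell into 158 runs of consecutive LADs: 113 single LADs, 33 pairs, 9 runs of 3 and 3 longer ones. The longest run held 6 LADs over 3.50 Mb of chromosome 8. The next held 5 LADs on chromosome 11 at 22860001 to 26900000, with 2500 kb of LAD in 4.04 Mb, and 4 LADs on chromosome 1 at 67670001 to 72150000, with 3020 kb in 4.48 Mb. The changed regions around a LAD are shared with its neighbours, so runs are partly fixed by the rule too.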

How the data were processed

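ChIP-seq was performed on 17 IMR90 libraries in 11 groups. Bowtie 0.12.5 and hg18 are the aligner and genome build that the submitters' processing notes name. The authors deposited 5 lists of region coordinates, of which the LADs are merged lamin B1 windows per the file headers. How regions were called, at which thresholds and with which libraries pooled is not given in the sources used. No signal or value per sample was used, so depth is unknown, and no error between cultures can be given.

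Start and end were read as BED coordinates and overlap meant at least 1 shared bp. Comparisons used other autosomal LADs weighted to the members' numbers in 5 length classes, with medians weighted and shares pooled within a class. With 1 lamin B1 library no test over samples exists, and regions are not replicates, so no p-value was computed. Numbers of autosomes in each direction describe variation along the genome. Interval code was tested on simulated data (Python 3.11.15, numpy 2.4.6, pandas 2.3.3).

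The members and comparisons were chosen with earlier results of these data known. Regions named are the longest, those in the longest free stretches, those nearest to the threshold and those with extreme gaps or runs; not all are printed. The LADs farthest from any region and the second LAD of chromosome 21 were added after values were seen. Gene content and sequence were not analysed here, because no genome or annotation of hg18 was used.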

Additional observations from a re-analysis of the deposited data

How the results depend on the processing

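No paired analysis was possible because the lists hold no values per replicate. The number of LADs without a called change was 221. It became 345 without the H3K27me3 mesa list, 902 without the canyon list, 339 when up to 10% of a LAD could be covered and 581 when up to 50% could, where the median length also moved from 210 to 420 kb. It stayed within 1.5 times of 221 without either H3K4me3 list, with a clearance of 10 or 100 kb, with X and Y and with H3K27me3 regions under 50 kb ignored (325). The share of neighbours that also met the rule, 28.8%, became 39.3% with up to 10% covered and 37.7% with short H3K27me3 regions ignored. Omitting each autosome in turn gave 194 to 221 LADs and 27 to 29.9% of neighbours. No autosome held more than 27 of the 221, so the count could not leave the range of 1.5 times. The other values moved by less than 1 SD over autosomes, and none changed direction. That SD is wide beside some values, such as 180 kb for the gap difference of -70 kb, so staying within it says little.

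The gap difference of -70 kb turned to 80 kb against LADs touched by mesas only, over all lengths and over 100 kb. Against LADs touched by canyons only, the differences in gap cover turned to 0.40 points for replicative mesas and 1.22 for H3K27me3 mesas. Against the mesa-only group they moved to -10.2 points for replicative, -11.7 for H3K27me3 mesas and -4.31 for canyons, and against LADs touched by both to -7.61 for replicative and -26.6 for Ras-induced mesas. These comparison groups were chosen after the data were seen and were themselves defined by the lists, so the cause was not tested. Exactly equal lengths, possible for 218 of 221 LADs, kept each direction. The depth behind the calls is unknown here.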
